A study of Homo sapiens with 6 samples.

Results

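Collagens and laminins are the structural chains of the extracellular matrix. The gene tables of 6 RNA sequencing libraries hold 56 of them among 23686 genes, chosen by symbol alone: 44 collagen chains and 12 laminin chains. Of the 56, 36 had enough reads to be tested, which means at least 10 reads in at least 2 libraries. Another 15 were found at trace level under that filter, and 5 had no read in any library. The libraries came from HCC15 and A427, a pair of human cell lines of non-small cell lung carcinoma with genotype WT, grown in RPMI with 5% fetal bovine serum. Each line received LGR6 siRNA 2, LGR6 siRNA 4 or a control siRNA labelled Tax, and RNA was taken 48 h after transfection. There was 1 library for each line and siRNA, so no culture was replicated, and separate cultures are not mentioned in the labels. An established line models a tumour without its stroma.

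Collagen chains assemble in threes into a triple helix inside the cell, and chain choice sets the type: fibrillar collagens form fibres, type IV collagens form the sheet of the basement membrane, and type VI collagens form beaded filaments. Laminins are cross-shaped trimers of an alpha, a beta and a gamma chain that polymerise beside type IV collagen and bind integrins on epithelial cells. Carcinoma cells make basement membrane chains themselves, whereas fibroblasts are known as the main source of fibrillar collagen in a tumour.

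Total reads per library ran from 25546434 to 28987918, and 0.168% to 0.28% of reads fell on the 56 chains. LGR6, the target, is a receptor for R-spondins. It had 39 reads with siRNA 2 and 77 with siRNA 4 in HCC15, against 257 with control siRNA, and 0 and 0 reads in A427, against 5 with control siRNA, so A427 started close to the floor of 3 reads. Levels are given as TPM, the abundance the authors deposited, scaled for gene length and library size. Unless named otherwise, the values of a line stand in the order siRNA 2, siRNA 4, control. Fold changes are log2 values from edgeR's quasi-likelihood test on read counts, with a Benjamini-Hochberg adjusted p over 14481 genes, called under 0.05. The ± there is an approximate standard error, the size of the log2 change divided by the square root of the test's F statistic. For a chain with few reads in a line, it can be smaller than the counting error. With 2 residual degrees of freedom, the spread behind these p-values reflects disagreement of HCC15 and A427 over the siRNA effects, not a spread between replicates.

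The lines made different matrix chains. HCC15 was led by COL18A1, with type IV collagen next, and A427 by the fibrillar chains COL5A2 and COL3A1. The collagens summed to 656, 349 and 571 TPM in HCC15, against 487, 464 and 443 TPM in A427, so the ranges of the lines overlapped. The laminins summed to 252, 180.3 and 210.2 TPM in HCC15, against 394, 375 and 383 TPM in A427, with every HCC15 library below every A427 library. At 1 TPM or more, 17 chains were found in all 6 libraries. Another 6 reached it in all HCC15 libraries and no A427 library: COL4A6, COL9A3, COL13A1, COL16A1, COL26A1 and LAMB3. The reverse held for 6: COL3A1, COL11A1, COL11A2, COL27A1, LAMA2 and LAMA4. The same counts over all genes were not taken, so these numbers describe the chains and show nothing particular to them.

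**Figure D1:**
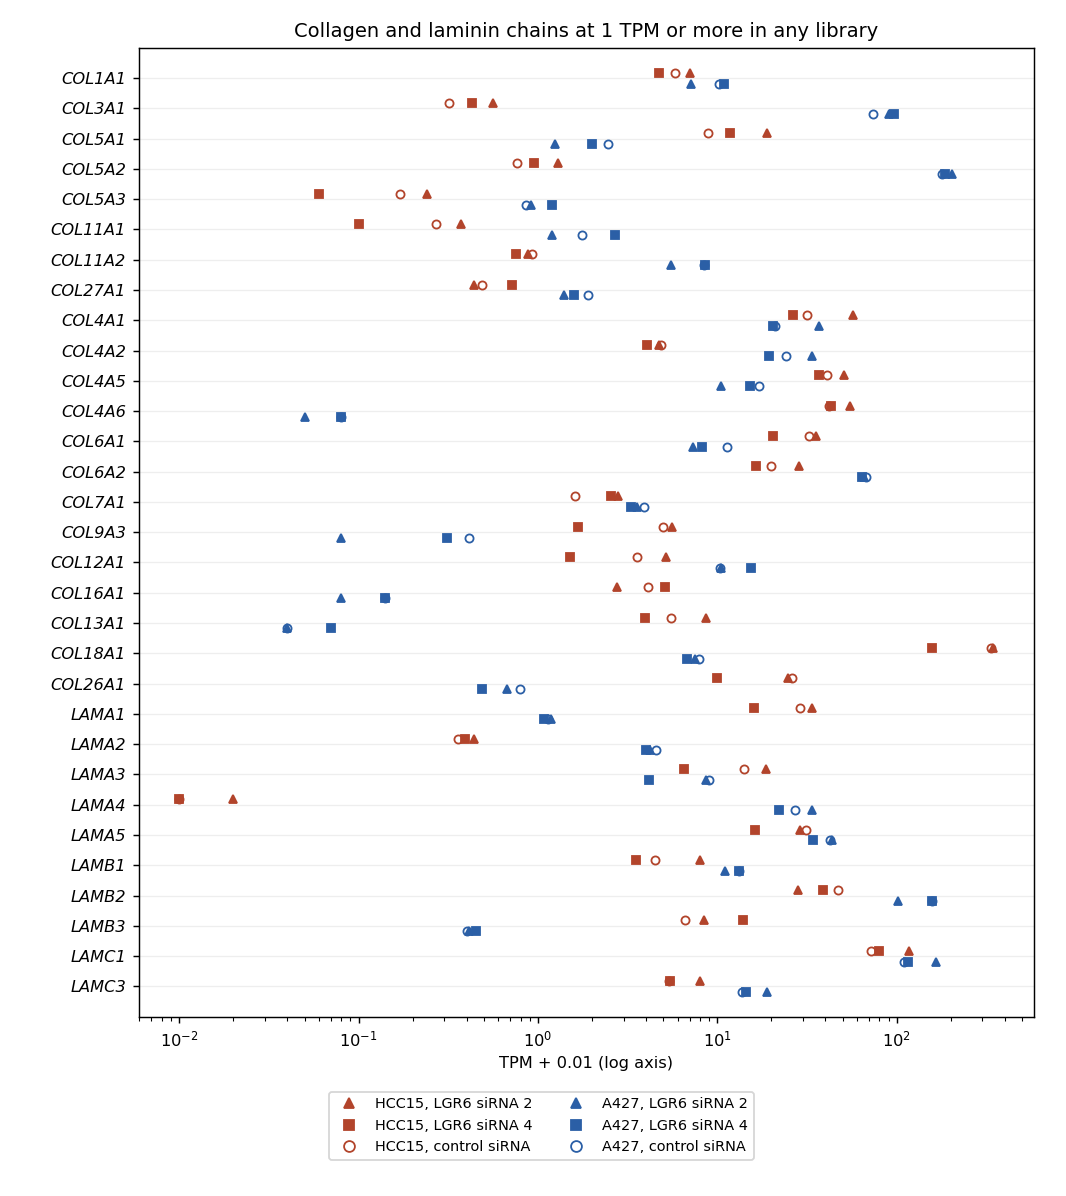
TPM of collagen and laminin chains that reached 1 TPM in at least 1 library, plotted as TPM + 0.01 on a log axis, 1 point per library, ordered by type. HCC15 is red and above A427, which is blue, and filled triangles, filled squares and open circles mark siRNA 2, siRNA 4 and control. COL5A2, COL3A1 and LAMA4 lie far to the right in A427, and COL18A1, COL4A6 and COL13A1 in HCC15.

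All 36 tested chains were called between HCC15 and A427, 14 higher and 22 lower in HCC15. Over all tested genes 76.5% were called, 37.2% higher and 39.3% lower in HCC15, and a chain that passed the filter only through the line where it is high had to differ. Of the 36, 27 had passed in both lines. Only through HCC15 passed 5: COL4A6, COL8A2, COL9A3, COL13A1 and COL16A1. Only through A427 passed 4: COL4A4, COL20A1, COL24A1 and LAMA4. The count of calls therefore says nothing particular about the 36 chains. For a chain that passed through 1 line alone, the p-value between the lines is no support and is not given. Fewer of the 36 tested chains were called by DESeq2 (33) and with siRNA left out of the model (31), and the log2 TPM scales, whose filters differ, gave 30 to 34 chains. The median log2 difference of the 36 chains was -0.90, beside -0.03 over all tested genes, and the median of its size without sign was 2.74, beside 0.85. These medians include the chains that passed the filter through 1 line alone. How many of all tested genes did so was not counted. What follows therefore gives the individual chains.

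Among the fibrillar collagens, the summed level was 29.9, 19.5 and 17.6 TPM in HCC15, against 310.4, 309 and 278 TPM in A427. COL5A2, a chain of type V collagen, which starts fibrils of type I, had 1.28, 0.94 and 0.75 TPM in HCC15, against 203, 186 and 178 TPM in A427, where it made up 40.2% to 41.6% of all collagen TPM. COL3A1, the chain of type III collagen of reticular fibres, had 0.55, 0.42 and 0.31 TPM in HCC15, against 90.0, 96.1 and 73.97 TPM in A427. These genes are next to each other on chromosome 2 in the RefSeq gene order. Both were lower in every HCC15 library than in any A427 library, by -7.49 ± 0.15 (adjusted p = 3.31e-09) for COL5A2 and -7.58 ± 0.15 (adjusted p = 3.69e-09) for COL3A1 in edgeR.

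COL5A1, the usual partner of COL5A2 in type V collagen, went the other way, with 18.9, 11.8 and 8.89 TPM in HCC15, against 1.23, 1.98 and 2.43 TPM in A427 (log2 difference 2.85 ± 0.31, edgeR adjusted p = 4.69e-05). The 3 chains that can form type V collagen therefore did not share a direction, since COL5A3, the third, had 0.23, 0.05 and 0.16 TPM in HCC15, against 0.90, 1.18 and 0.85 TPM in A427. COL11A1, a chain of type XI collagen of cartilage fibrils, had 0.36, 0.09 and 0.26 TPM in HCC15, against 1.19, 2.69 and 1.74 TPM in A427. COL11A2, its partner, had 0.87, 0.74 and 0.92 TPM in HCC15, against 5.51, 8.46 and 8.37 TPM in A427. COL5A3, COL11A1 and COL11A2 were lower in HCC15, by -2.64, -2.86 and -3.36 in log2, with edgeR adjusted p of at most 0.000283. COL27A1, a fibrillar collagen of cartilage, had 0.43, 0.71 and 0.48 TPM in HCC15, against 1.39, 1.57 and 1.88 TPM in A427.

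Type I collagen was represented by 1 of its chains. COL1A1 had 7.05, 4.72 and 5.76 TPM in HCC15, against 7.15, 10.9 and 10.2 TPM in A427, with no overlap between the lines but only a small gap. COL1A2, its partner in the common form of type I collagen, was at trace level, with 0 reads in every HCC15 library and 1 to 3 reads in A427 libraries, at most 0.05 TPM. COL2A1, the cartilage collagen, stayed at 11 reads or fewer, and COL24A1 at 2 to 4 reads in HCC15, against 9 to 25 reads in A427.

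The mesenchymal markers VIM, CDH2, ZEB1 and FN1 differed alongside. Of the 4, 3 reached 1 TPM in HCC15 and 4 in A427, and their sum was 1376 to 1631 TPM in HCC15, against 4395 to 5568 TPM in A427, nearly all of it VIM. FN1 was also below A427 in every HCC15 library, at 0.54 to 0.79 TPM in HCC15, against 1.46 to 3.68 TPM in A427. CDH2 and ZEB1 went the other way, with 4.09 to 9.02 TPM of CDH2 and 15.7 to 25.6 TPM of ZEB1 in HCC15, against 1.14 to 1.72 and 9 to 11.7 TPM in A427. The epithelial list (EPCAM, CDH1 and 4 keratins) had 6 of 6 at 1 TPM or more in HCC15 and 4 of 6 in A427, summing to 4228 to 9380 TPM in HCC15 and 989 to 1263 TPM in A427. Keratins carried that sum in HCC15, and EPCAM had 27.6 to 53.9 TPM in HCC15, against 403 to 457 TPM in A427. Of 7 fibroblast markers, 1 reached 1 TPM in HCC15 and 2 in A427, with sums of 17.9 to 24.2 TPM in HCC15 and 38.0 to 72.7 TPM in A427. FAP, a protease of activated fibroblasts, was at 0 in every HCC15 library, against 9.11 to 20.9 TPM in A427, and ACTA2, smooth muscle actin, had 17.4 to 23.9 TPM in HCC15, against 27.9 to 53.0 TPM in A427. DCN, the defining proteoglycan decorin, was at 0 in all 6 libraries, and PDGFRA, PDGFRB, LUM and THY1 stayed under 1 TPM. No endothelial marker of 4 reached 1 TPM in either line, and the 3 leukocyte markers PTPRC, CD68 and CD3E summed to 1.78 to 4.18 TPM in HCC15 and 25.4 to 32.5 TPM in A427, mostly CD68. PTPRC, the defining one, was at 0 in HCC15 and 1.22 to 1.58 TPM in A427. Squamous markers reached 1 TPM in 0 of 5 cases in both lines, and lung adenocarcinoma markers in 0 of 4 in HCC15 and 1 of 4 in A427. The part of these markers in the collagen differences was not tested. In bulk libraries fewer cells of a kind and less RNA per cell cannot be told apart.

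Type IV collagens summed to 167, 110.0 and 119 TPM in HCC15, against 80.9, 55.4 and 62.6 TPM in A427. The 6 genes are known to lie in head-to-head pairs, COL4A1 with COL4A2, COL4A3 with COL4A4 and COL4A5 with COL4A6, each pair transcribed outward from a shared stretch. In the RefSeq promoter table (GRCh38.p14), which holds a window of 300 bases for 41 of the 56 chains, the COL4A1 and COL4A2 starts are separated by 126 bases, and those of COL4A5 and the nearer COL4A6 start by 379 bases. The windows run from 250 bases before to 50 bases after the start, on the gene's own strand. They are shown because the pairs behaved differently between the lines. The first is COL4A2, chr13:110307034-110307333, plus strand, with the bases between the COL4A1 and COL4A2 starts in capitals. The others are COL4A5, chrX:108439588-108439887, plus strand, and COL4A6, chrX:108439409-108439708, minus strand, with the 121 bases that both windows share in capitals, on opposite strands.
COL4A2: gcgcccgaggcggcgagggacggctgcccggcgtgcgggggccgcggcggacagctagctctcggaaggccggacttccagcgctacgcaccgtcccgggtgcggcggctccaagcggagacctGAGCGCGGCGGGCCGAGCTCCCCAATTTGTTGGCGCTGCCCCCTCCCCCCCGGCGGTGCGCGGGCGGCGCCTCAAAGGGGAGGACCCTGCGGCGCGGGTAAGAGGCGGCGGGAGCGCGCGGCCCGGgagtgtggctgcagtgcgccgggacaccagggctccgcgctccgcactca
COL4A5: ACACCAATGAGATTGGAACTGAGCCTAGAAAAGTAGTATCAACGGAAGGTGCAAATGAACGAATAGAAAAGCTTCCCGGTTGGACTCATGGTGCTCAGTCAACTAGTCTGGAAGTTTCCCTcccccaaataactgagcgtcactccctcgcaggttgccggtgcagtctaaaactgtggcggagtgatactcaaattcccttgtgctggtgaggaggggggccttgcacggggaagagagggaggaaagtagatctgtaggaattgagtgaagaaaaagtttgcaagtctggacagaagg
COL4A6: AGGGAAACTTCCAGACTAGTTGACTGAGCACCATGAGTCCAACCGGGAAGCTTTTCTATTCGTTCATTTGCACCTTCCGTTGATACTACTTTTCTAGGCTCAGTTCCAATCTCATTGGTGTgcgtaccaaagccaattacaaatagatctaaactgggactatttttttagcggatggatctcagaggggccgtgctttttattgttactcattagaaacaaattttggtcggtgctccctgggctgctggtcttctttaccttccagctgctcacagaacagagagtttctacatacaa
On both strands, CCAAT was found 1 time in the COL4A2 window, 2 times in COL4A5 and 3 times in COL4A6, and 34.6% of all 35116 windows of this length hold it. The 2 matches in COL4A5 lie in the shared capitals and are the same sites as 2 of the 3 in COL4A6. The Sp1-type box GGGCGG was found 1 time in COL4A2 and in neither of the others (44.95% of all windows), and TATAAA in none of the 3 (11.5%). None of the 3 motifs contains another, and a match is a description of the window only.

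COL4A1 and COL4A2 encode the chains of the ubiquitous type IV collagen, with more alpha1 than alpha2 in each trimer. COL4A1 had 56.8, 26.4 and 31.7 TPM in HCC15, against 36.7, 20.5 and 21.0 TPM in A427, so the lines overlapped (log2 difference 0.63 ± 0.10, edgeR adjusted p = 0.000329, and adjusted p = 0.105 when siRNA is left out of the model). COL4A2 had 4.74, 4.03 and 4.82 TPM in HCC15, against 33.5, 19.4 and 24.2 TPM in A427, with no overlap (-2.38 ± 0.15, adjusted p = 1.95e-06). As a ratio of TPM, COL4A1 exceeded COL4A2 by 6.56 to 11.98 times in HCC15, and stood at 0.867 to 1.10 times COL4A2 in A427. The mean log2 ratio was 3.002 higher in HCC15, with an exact permutation p of 0.1 (two-sided), the smallest that 3 libraries against 3 can give. The permutation moved libraries freely between the lines and did not pair them by siRNA. An antisense row named for COL4A2 had 0 reads in every library.

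COL4A5 and COL4A6 encode chains that join in epithelial basement membranes. COL4A5 had 50.8, 36.7 and 40.9 TPM in HCC15, against 10.5, 15.2 and 17.0 TPM in A427 (1.70 ± 0.18, adjusted p = 3.52e-05 in edgeR). COL4A6 had 55.1, 42.9 and 41.8 TPM in HCC15, against 0.04, 0.07 and 0.07 TPM in A427, where it rested on 3 to 6 reads (9.70 ± 0.20). COL4A6 passed the filter only through HCC15, so a test between the lines gives it no support. In HCC15 the pair was near parity, COL4A5 being 0.856 to 0.98 times COL4A6 in TPM, and in A427 COL4A5 was 217 to 262 times COL4A6. The permutation p for this ratio was again 0.1 (exact), the smallest possible. It gives no support either, because the ratio holds COL4A6, which passed the filter only through HCC15. These pair ratios, with those for COL6A1 and COL6A2, LAMB1 and LAMB2, and LAMA5 and LAMC1, make 5 ratios, all chosen after the levels were seen. The permutation tests of all 5 left out the pairing by siRNA.

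**Figure D2:**
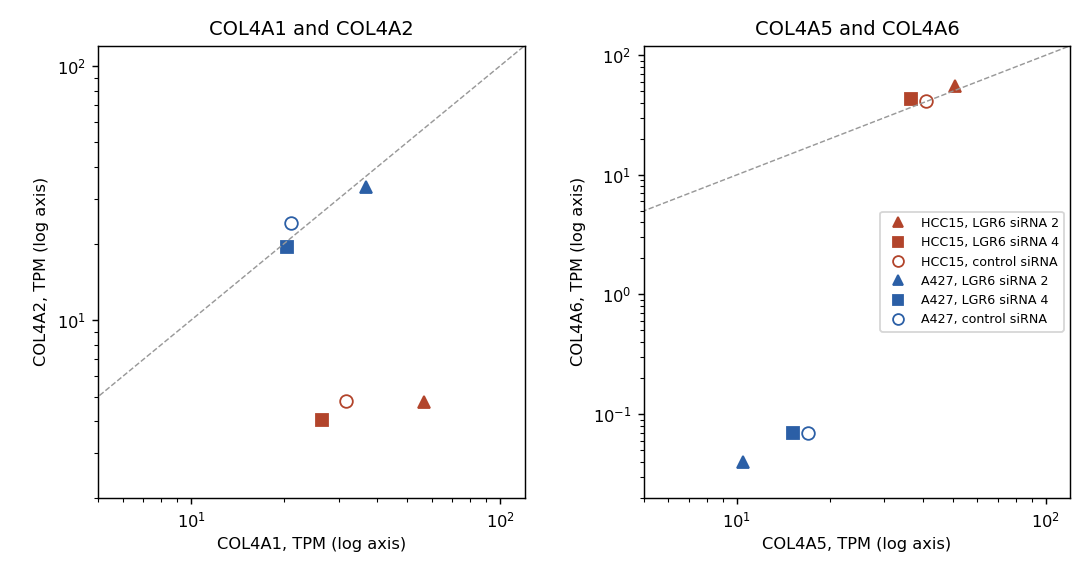
TPM of COL4A2 against COL4A1 (left) and of COL4A6 against COL4A5 (right), both axes log, 1 point per library, with HCC15 red and A427 blue and the dashed line marking equal levels. A427 sits near the line for COL4A1 and COL4A2 and HCC15 below it, whereas HCC15 sits near the line for COL4A5 and COL4A6 and A427 far below it.

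COL4A3 and COL4A4, the partners of COL4A5 in the kidney filter, were scarce. COL4A4 had 3 reads over the HCC15 libraries, against 88 over the A427 libraries, a 30.5-fold higher level in A427 with an interval of 10.1 to 151 (95%, exact, counting error only). As COL4A4 passed the filter only through A427, the interval describes the pooled reads and gives no support. COL4A3 had 0 reads in HCC15, against 21 in A427, and so was at least 7.28-fold higher in A427, taking 3 reads over the HCC15 libraries as the floor. Neither reached 1 TPM in any library.

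COL18A1, a multiplexin of basement membranes that carries the endostatin fragment, was the most abundant collagen of HCC15. It had 345, 158 and 336 TPM in HCC15, against 7.53, 6.71 and 7.84 TPM in A427 (5.26 ± 0.19, edgeR adjusted p = 6.88e-08). In HCC15 that was 45.2% to 58.8% of collagen TPM, and in A427 1.45% to 1.77%. Antisense rows named for COL18A1 had 0 reads throughout, and COL15A1, the other multiplexin, was not detected.

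Type VI collagen summed to 63.8, 36.7 and 52.2 TPM in HCC15, against 73.0, 71.8 and 78.9 TPM in A427, a gap smaller than that of its single chains, which differed in opposite directions. COL6A1 had 35.2, 20.3 and 32.3 TPM in HCC15, against 7.33, 8.19 and 11.3 TPM in A427 (1.79 ± 0.17, adjusted p = 1.59e-05 in edgeR). COL6A2 had 28.5, 16.3 and 19.9 TPM in HCC15, against 65.6, 63.6 and 67.5 TPM in A427 (-1.55 ± 0.14, adjusted p = 1.22e-05). COL6A1 was thus 1.24 to 1.63 times COL6A2 in HCC15 and 0.112 to 0.168 times in A427, without overlap (exact permutation p = 0.1, the smallest possible). The alpha3 chain, which the others are known to need for assembly, was nearly absent: COL6A3 had 1 to 8 reads in HCC15 libraries and 0 to 1 in A427 libraries, at most 0.09 TPM. COL6A5 and COL6A6, which can take its place, had no read.

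Of the transmembrane, FACIT and other types, COL13A1, COL16A1, COL26A1 and COL9A3 were higher in HCC15. COL13A1, a transmembrane collagen of cell contacts, had 8.63, 3.93 and 5.49 TPM in HCC15, against 0.03, 0.06 and 0.03 TPM in A427, where each library held 1 or 2 reads. COL16A1, a FACIT chain, which binds to the surface of other fibrils, had 2.74, 5.10 and 4.11 TPM in HCC15, against 0.07, 0.13 and 0.13 TPM in A427. COL26A1, a short collagen with an EMI domain, had 24.7, 9.95 and 26.1 TPM in HCC15, against 0.66, 0.48 and 0.78 TPM in A427. These 3 chains were higher in HCC15 in all libraries, by 7.28 ± 0.34, 5.25 ± 0.25 and 5.03 ± 0.20 in log2. COL26A1 passed the filter in both lines and had an edgeR adjusted p of 1.15e-07. COL13A1 and COL16A1 passed the filter only through HCC15, so a test between the lines gives them no support. COL9A3, a chain of type IX collagen, had 5.55, 1.67 and 4.93 TPM in HCC15, against 0.07, 0.30 and 0.40 TPM in A427 (3.97 ± 0.41), while its partners COL9A1 and COL9A2 stayed at trace level.

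In the other direction, COL12A1, a FACIT chain of fibrils under tension, had 5.15, 1.49 and 3.54 TPM in HCC15, against 10.4, 15.3 and 10.3 TPM in A427 (-1.74 ± 0.35, edgeR adjusted p = 0.00165). The COL12A1 difference was -1.14 without A427 siRNA 4 and -1.11 without HCC15 siRNA 4, still called. COL7A1, the chain of the anchoring fibrils that tie the epidermis to the dermis, had 2.78, 2.55 and 1.60 TPM in HCC15, against 3.54, 3.27 and 3.86 TPM in A427. COL7A1 and COL1A1 were among the smallest differences called, at -0.55 and -0.59 in log2, with edgeR adjusted p of 0.0319 and 0.0213. Both calls were lost without either control library, where COL7A1 stood at -0.23 and COL1A1 at -0.48 in log2, with adjusted p of at least 0.339 and 0.137. COL1A1 was also lost without the A427 siRNA 4 library (-0.36) and without HCC15 siRNA 4 (-0.33). COL20A1 rested on 2 reads over HCC15, against 23 over A427, a level 11.96-fold higher in A427 (interval 2.96 to 105, counting error only). It too passed the filter only through A427, so the interval describes the pooled reads and gives no support. COL8A2, a chain of hexagonal networks, had 3 to 12 reads in HCC15 libraries, against 1 to 2 in A427 libraries.

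The chains without usable signal are part of the description. COL8A1, COL10A1, COL15A1, COL6A5 and COL6A6 had no read in 6 libraries, where 3 reads would have been 0.103 to 0.117 CPM, that is, scaled by the library total. The 15 trace chains were COL14A1, COL17A1, COL19A1, COL1A2, COL21A1, COL22A1, COL23A1, COL25A1, COL28A1, COL2A1, COL4A3, COL6A3, COL9A1, COL9A2 and LAMB4. None exceeded 0.22 TPM or 11 reads in a library. COL17A1, the transmembrane collagen of hemidesmosomes, had 0 reads in HCC15, against 21 in A427, at least 7.28-fold higher in A427 by the same floor.

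Laminin composition differed mainly in the alpha chain, the part that binds integrins. LAMA5, the alpha chain of adult epithelial laminins, had 28.7, 16.2 and 31.3 TPM in HCC15, against 43.3, 34.0 and 42.5 TPM in A427, and gave 35.4% to 42.1% of alpha-chain TPM in HCC15 and 47.6% to 52.2% in A427. The other abundant alpha chain was a different gene in each line. LAMA1, the alpha chain of the laminin of early embryos, had 33.4, 16.0 and 28.7 TPM in HCC15, against 1.17, 1.07 and 1.12 TPM in A427 (4.57 ± 0.17, edgeR adjusted p = 1.00e-07). LAMA4, known from vessels and mesenchymal cells, had 0.01, 0 and 0 TPM in HCC15, against 33.7, 21.9 and 27.1 TPM in A427. By reads LAMA4 had 1 over HCC15, against 7033 over A427. That is 7316-fold higher in A427 with an interval of 1313 to 288991 (95%, exact, counting error only). LAMA4 passed the filter only through A427, so the interval describes the pooled reads and gives no support. LAMA2, the muscle alpha chain, had 0.43, 0.38 and 0.35 TPM in HCC15, against 4.19, 3.98 and 4.51 TPM in A427 (-3.36 ± 0.17, adjusted p = 5.00e-07).

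LAMA3 and LAMB3 are the alpha and beta chains of laminin-332, the laminin of hemidesmosomes. LAMA3 had 18.6, 6.47 and 14.0 TPM in HCC15, against 8.67, 4.15 and 9 TPM in A427, overlapping between the lines (0.74 ± 0.12, edgeR adjusted p = 0.000498, and adjusted p = 0.109 when siRNA is left out of the model). LAMB3 had 8.35, 13.9 and 6.56 TPM in HCC15, against 0.40, 0.44 and 0.39 TPM in A427 (4.61 ± 0.23, adjusted p = 4.09e-07). LAMB3 was thus under 1 TPM in every A427 library and at 6.56 TPM or more in every HCC15 library.

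The most abundant beta and gamma chains were the same in both lines. LAMB2 had 28, 38.6 and 47.3 TPM in HCC15, against 101, 158 and 157 TPM in A427 (-1.78 ± 0.10, edgeR adjusted p = 7.66e-07), and LAMB1 had 7.98, 3.52 and 4.46 TPM in HCC15, against 10.96, 13.1 and 13.2 TPM in A427. LAMC1, the gamma chain of most laminins, had 117, 79.5 and 71.5 TPM in HCC15, against 165, 115 and 110.0 TPM in A427, which overlapped. LAMC3 had 8.02, 5.41 and 5.38 TPM in HCC15, against 18.8, 14.5 and 13.7 TPM in A427. The ratios of LAMB1 to LAMB2 and of LAMA5 to LAMC1 overlapped between the lines, with exact permutation p of 0.5 and 0.7. A pseudogene row for LAMB2 had 1 to 13 reads.

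**Figure D3:**
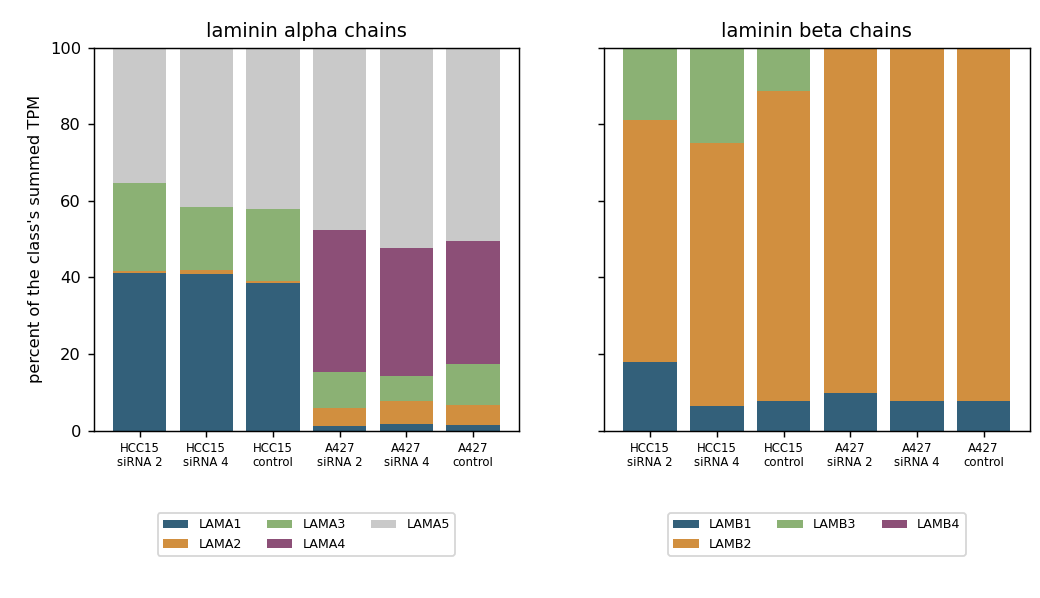
Share of each chain in the summed TPM of the laminin alpha chains (left) and beta chains (right), in percent, 1 stacked bar per library, with the HCC15 libraries left of the A427 libraries. LAMA1 fills 38.6% to 41.2% of the alpha bars in HCC15, LAMA4 32.2% to 37.0% in A427, and LAMB3 11.3% to 24.7% of the beta bars in HCC15.

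With LGR6 siRNA 2 against control siRNA, COL4A1 and LAMC1 rose and LAMB2 fell, each in both lines. These were 3 of 36 chains, 8.33%, beside 7.62% of all tested genes (2.96% higher and 4.66% lower with siRNA 2), a share near the background. COL4A1 had 56.8 TPM with siRNA 2, against 31.7 TPM with control in HCC15, and 36.7 against 21.0 TPM in A427 (0.76 ± 0.12, edgeR adjusted p = 0.00963). LAMC1 had 117 against 71.5 TPM in HCC15 and 165 against 110.0 TPM in A427 (0.58 ± 0.11, adjusted p = 0.0208). LAMB2 had 28 against 47.3 TPM in HCC15 and 101 against 157 TPM in A427 (-0.76 ± 0.12, adjusted p = 0.00963). For all 3 genes the siRNA 2 library stood on the same side of the control library in HCC15 and in A427. COL4A2 was not called: it had 4.74 TPM with siRNA 2, against 4.82 TPM with control in HCC15, and 33.5 against 24.2 TPM in A427.

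Each of these calls was lost when some libraries were left out. Without the A427 control library the adjusted p was 0.143 for COL4A1, 0.196 for LAMC1 and 0.0760 for LAMB2, and without the HCC15 control library 0.164, 0.323 and 0.218. Without the HCC15 siRNA 2 library these were 0.0645, 0.0746 and 0.0642, and LAMC1 also reached 0.0616 without the A427 siRNA 2 library. The log2 changes stayed between 0.71 and 0.81 for COL4A1, 0.53 and 0.63 for LAMC1, and -0.87 and -0.65 for LAMB2.

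With LGR6 siRNA 4 against control siRNA, LAMA3, COL26A1 and LAMA5 fell and LAMB3 rose. That is 4 of 36 chains, 11.1%, beside 12.5% of all tested genes (4.58% higher and 7.95% lower with siRNA 4), again near the background. The control libraries are the same as for siRNA 2, so these comparisons are not independent. LAMA3 had 6.47 TPM with siRNA 4, against 14.0 TPM with control in HCC15, and 4.15 against 9 TPM in A427 (-1.02 ± 0.15, edgeR adjusted p = 0.00492). LAMA5 had 16.2 against 31.3 TPM in HCC15 and 34.0 against 42.5 TPM in A427 (-0.60 ± 0.15, adjusted p = 0.0343). COL26A1 had 9.95 against 26.1 TPM in HCC15 and 0.48 against 0.78 TPM in A427 (-1.23 ± 0.22, adjusted p = 0.0104). LAMB3 had 13.9 against 6.56 TPM in HCC15 and 0.44 against 0.39 TPM in A427 (0.97 ± 0.24, adjusted p = 0.0366), so its level changed mostly in HCC15, and DESeq2 gave it an adjusted p of 0.118. COL18A1 had 158 against 336 TPM in HCC15 and 6.71 against 7.84 TPM in A427 and missed the threshold (-0.65 ± 0.20, adjusted p = 0.0700).

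Of these, LAMA3 was the one lost through control libraries alone, at an adjusted p of 0.0804 without the A427 control and 0.0731 without the HCC15 control. COL26A1 was lost without the A427 control (0.0653), the HCC15 control (0.417) and the HCC15 siRNA 4 library (0.491). LAMA5 was lost without the same libraries (0.0871, 0.410 and 0.272), and LAMB3 too (0.1097, 0.785 and 0.827). The log2 change of COL26A1 went as near 0 as -0.66, that of LAMA5 as near as -0.37 and that of LAMB3 as near as 0.27, whereas that of LAMA3 stayed between -1.11 and -0.92.

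**Figure D4:**
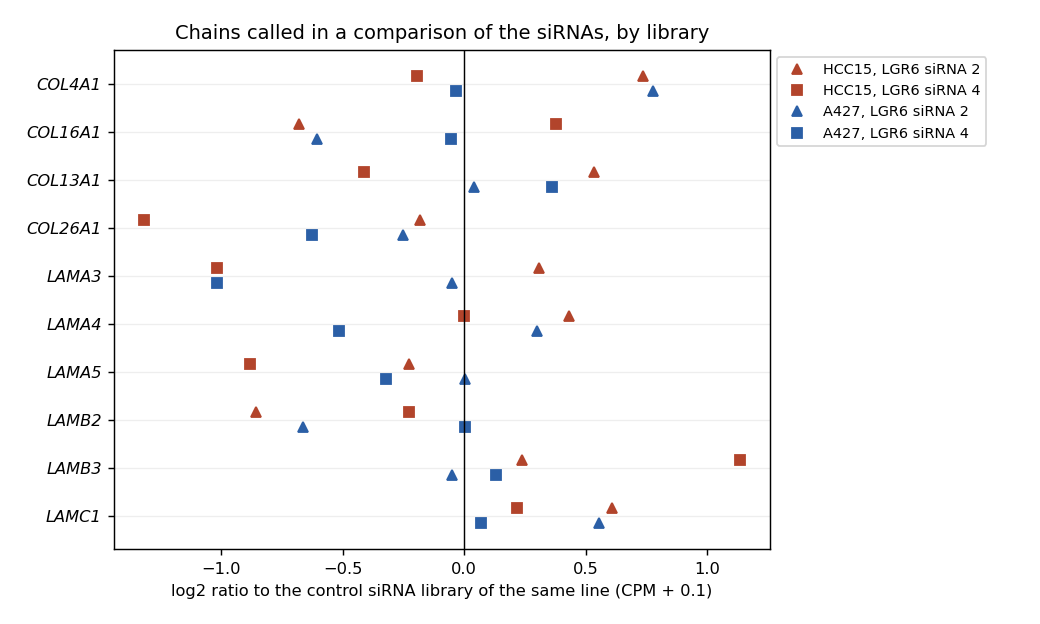
Log2 ratio of each LGR6 siRNA library to the control library of its line, on TMM-scaled CPM with 0.1 added, for the 10 chains called in a comparison of the siRNAs. HCC15 is red and above A427, which is blue, with triangles for siRNA 2 and squares for siRNA 4. LAMA3 lies near -1 with siRNA 4 in both lines, COL4A1 near 0.75 with siRNA 2 in both lines, and the HCC15 points of LAMA4 rest on at most 1 read and the A427 points of COL13A1 on 1 or 2 reads each.

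The siRNAs differed from each other in 8 of 36 chains, 22.2%, beside 16.5% of all tested genes (7.7% higher and 8.84% lower with siRNA 4). With siRNA 4 against siRNA 2, LAMA3, COL4A1, COL26A1, COL13A1, LAMA4 and LAMC1 were lower and COL16A1 and LAMB2 higher. The firmest were LAMA3 (-1.16 ± 0.15, edgeR adjusted p = 0.00265) and COL4A1 (-0.87 ± 0.12, adjusted p = 0.00305). LAMA3 had 6.47 TPM with siRNA 4, against 18.6 TPM with siRNA 2 in HCC15, and 4.15 against 8.67 TPM in A427. COL4A1 had 26.4 against 56.8 TPM in HCC15 and 20.5 against 36.7 TPM in A427. Leaving out any 1 library kept both calls, at an adjusted p of at most 0.0275 for LAMA3 and 0.0298 for COL4A1. LAMB2 was higher (0.65 ± 0.12, adjusted p = 0.00939), with 38.6 against 28 TPM in HCC15 and 158 against 101 TPM in A427, and had an adjusted p of 0.0627 without the HCC15 siRNA 2 library.

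Each of the other 5 calls was lost in at least 4 of the 6 cases of leaving out 1 library. LAMC1 (-0.44 ± 0.11, edgeR adjusted p = 0.0325) had 79.5 against 117 TPM in HCC15 and 115 against 165 TPM in A427, and was lost whichever of the 6 libraries was left out, at adjusted p of 0.0771 to 0.146. COL26A1 (-1.04 ± 0.22, adjusted p = 0.0166) had 9.95 against 24.7 TPM in HCC15 and 0.48 against 0.66 TPM in A427. COL16A1 (1.04 ± 0.24, adjusted p = 0.0238) had 5.10 against 2.74 TPM in HCC15 and 0.13 against 0.07 TPM in A427. COL26A1 and COL16A1 both lost the call without either control library, and when either HCC15 LGR6 siRNA library was dropped, with adjusted p up to 0.620 and 0.691.

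LAMA4 and COL13A1 are each near 0 in 1 line, so their call rests on the other. LAMA4 had 21.9 TPM with siRNA 4, against 33.7 TPM with siRNA 2 in A427 (-0.83 ± 0.20, edgeR adjusted p = 0.0214), and the log2 change was -3.40 when A427 siRNA 2 was left out and -2.45 when A427 siRNA 4 was, neither called. COL13A1 had 3.93 against 8.63 TPM in HCC15 (-0.92 ± 0.26, adjusted p = 0.0384), and turned to 0.22 when HCC15 siRNA 2 was left out and 0.67 when HCC15 siRNA 4 was, with adjusted p of 0.966 and 0.839. Both also lost the call without either control library. LAMA4 lost it without the HCC15 siRNA 2 library too, and COL13A1 without the A427 siRNA 2 library.

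Taking both LGR6 siRNAs against control in both lines, 0 of 36 chains and 0% of all tested genes were called by edgeR. This fit of line plus arm took the LGR6 siRNAs as samples of the same arm. Differences between siRNA 2 and siRNA 4 therefore entered its spread. At an unadjusted p under 0.05 there were 2 chains and 1513 genes, and DESeq2 called 387 genes and limma-voom 0, with 0 chains in each. The 2 chains were COL3A1 (0.42 ± 0.16, adjusted p = 0.440) and COL20A1 (1.90 ± 0.63, adjusted p = 0.354), COL20A1 being under 1 TPM throughout. COL3A1 had 0.55 and 0.42 TPM with siRNA 2 and siRNA 4, against 0.31 TPM with control in HCC15, and 90.0 and 96.1 against 73.97 TPM in A427, so it was higher in 4 of 4 libraries. With a term for each siRNA instead, the difference between siRNA 2 and siRNA 4 was taken out of the spread. The average of both siRNAs against control then gave calls for 8.96% of genes (3.31% higher and 5.65% lower) in edgeR. Among them were 0 chains higher and 2 lower, COL26A1 (-0.71 ± 0.18, adjusted p = 0.0450) and LAMB2 (-0.43 ± 0.10, adjusted p = 0.0335). The response differed between HCC15 and A427 in 0 of 36 chains and 0% of genes by edgeR, with 0 chains and 78 genes at an unadjusted p under 0.05 and 0 chains by DESeq2 and limma-voom.

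Genes that make, process and bind these chains were counted from 4 lists. Unlike the calls of the chains, theirs were not checked gene by gene by leaving out libraries or in the alternative fits. Of 19 enzymes and chaperones of collagen folding, all tested, 9 were higher and 6 lower in HCC15, beside 76.5% called over all genes. With siRNA 2 against control, 2 of 19 rose and none fell: SERPINH1, the chaperone HSP47 that binds the collagen helix, with 305 against 169 TPM in HCC15 and 249.95 against 160 TPM in A427 (0.68 ± 0.11, edgeR adjusted p = 0.0121), and P4HA3, a prolyl hydroxylase (1.67 ± 0.38, adjusted p = 0.0339). With siRNA 4 against control, 2 of 19 fell, PLOD2, a lysyl hydroxylase (-0.92 ± 0.19, adjusted p = 0.0203), and GLT25D2, a collagen galactosyltransferase (-1.64 ± 0.38, adjusted p = 0.0292), and none rose. Between siRNA 4 and siRNA 2, 4 of 19 were lower with siRNA 4: P4HA3, PLOD2, LEPREL1 and SERPINH1. The shares called in this list were 10.5%, 10.5% and 21.1%, beside 7.62%, 12.5% and 16.5% of all genes for siRNA 2 against control, siRNA 4 against control and siRNA 4 against siRNA 2, and so near the background. Of 13 procollagen proteases and cross-linking enzymes 11 were tested, 3 higher and 8 lower in HCC15, and 0 were called in each comparison of the siRNAs.

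Of 16 basement membrane partners 9 were tested, and 5 were higher and 2 lower in HCC15, 77.8% beside 76.5% of all genes. HSPG2, the heparan sulfate proteoglycan perlecan, had 81.8, 29.0 and 62.5 TPM in HCC15, against 6.07, 3.07 and 5.26 TPM in A427. It fell with siRNA 4 against control (-0.91 ± 0.13, edgeR adjusted p = 0.00458) and so did NTN4, a netrin that binds laminin (-1.60 ± 0.32, adjusted p = 0.0169), 2 of 9. With siRNA 2 against control, 2 of 9 rose, PXDN, the peroxidase that cross-links type IV collagen (1.02 ± 0.15, adjusted p = 0.00832), and FBLN1 (0.56 ± 0.13, adjusted p = 0.0336). HSPG2, NTN4 and PXDN were lower with siRNA 4 than with siRNA 2, 3 of 9. Over all genes the shares called were 7.62% with siRNA 2, 12.5% with siRNA 4 and 16.5% between the siRNAs, beside 22.2%, 22.2% and 33.3% of these 9 genes, where 1 gene is 11.1%.

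Of 19 receptors 16 were tested, 5 higher and 9 lower in HCC15, 87.5% beside 76.5% of all genes. ITGA6, the alpha6 integrin chain that binds laminins, had 178, 31.1 and 97.7 TPM in HCC15 and 201, 59.3 and 130 TPM in A427. It rose with siRNA 2 (0.69 ± 0.15, edgeR adjusted p = 0.0336) and fell with siRNA 4 (-1.35 ± 0.16, adjusted p = 0.00204), each against the same controls. ITGA2, a collagen receptor chain, also rose with siRNA 2 (1.10 ± 0.22, adjusted p = 0.0239), and DAG1, dystroglycan, fell (-0.89 ± 0.14, adjusted p = 0.0104), which makes 2 of 16 higher and 1 lower. With siRNA 4, CD44 rose (0.99 ± 0.25, adjusted p = 0.0386) and BCAM, which binds LAMA5, fell (-0.61 ± 0.16, adjusted p = 0.0429), which makes 1 of 16 higher and 2 lower. CD44 had 8.36 against 4.23 TPM in HCC15 but 0.07 against 0.07 TPM in A427, so its call rests on HCC15. Between the siRNAs, CD44 was higher and ITGA6, ITGA2 and DDR1 lower with siRNA 4 than with siRNA 2. For CD44 this was 8.36 against 4.79 TPM in HCC15 and 0.07 against 0.06 TPM in A427. The shares called among the 16 were 18.8% with siRNA 2, 18.8% with siRNA 4 and 25% between the siRNAs, beside 7.62%, 12.5% and 16.5% of all genes.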

How the data were processed

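The library kit was KAPA mRNA HyperPrep according to the labels. The submitters' processing notes name FastQC 0.11.1, STAR 2.5.3a, RSEM 1.3.3 and the build hg19. Annotation and strand setting: not given in the sources used here. Expected counts per gene were deposited by the authors, and of these which 5.75% to 6.29% per library were not whole. Rounding preceded all tests. The TPM deposited by the authors served for levels and as an alternative unit.

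Chains were found by symbol, and 14481 genes reaching 10 reads in 2 or more libraries were tested with edgeR 4.0.16 (TMM, quasi-likelihood test, Benjamini-Hochberg) in R 4.3.3. The fit of line plus siRNA had 2 residual degrees of freedom, and the fit of line plus arm 3. DESeq2 1.42.0 and limma 3.58.1 were alternatives, and the fits were tested on simulated data. The labels give the same siRNA numbers in HCC15 and A427. A number was taken as the same reagent in both lines, and the libraries were paired on that reading. The siRNA 4 minus siRNA 2 difference correlated between lines across genes (0.594), which is not a test of the pairing. No libraries were alike enough to be duplicates (lowest chi-square per degree of freedom 57.0). Intervals and floors cover counting error only. Chains reaching 1 TPM were given in every library, and those called among them with fold changes, at most 12 per direction, with COL4A1, COL1A1 and COL7A1 added after their values were seen. Up to 4 called genes per pathway list were named. 1 tested laminin chain is counted in the totals and is not reported here. The members and lists were chosen with earlier results of these data known.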

Additional observations from a re-analysis of the deposited data

How the results depend on the processing

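Between HCC15 and A427, 28 of 36 called chains kept their direction and call in every alternative that gave them a value (chains under 1 TPM, and COL5A3, had none on filtered TPM). Among the 28 are COL4A4, COL4A6, COL9A3, COL13A1, COL16A1, COL24A1 and LAMA4. These passed the filter through 1 line alone and had to differ, so their kept calls are no support. The same count over all genes was not taken. COL4A1, COL7A1, LAMA3, LAMA5 and LAMC1 lost the call in the fit of line alone (siRNA left out of the model), and COL1A1, COL7A1, COL8A2 and COL20A1 under DESeq2 or on a TPM scale. Of the 36, COL1A1 and COL7A1 lost it when 1 library was left out. Of the chains named in the siRNA comparisons, 0 of 3 (siRNA 2 against control), 0 of 4 (siRNA 4 against control) and 1 of 8 (siRNA 4 against siRNA 2, COL4A1) held in every alternative, the cause of the losses not being tested. On log2(TPM + 1) without a filter, siRNA 2 against control gave 0 chains higher and 0 lower, siRNA 4 against control 0 and 0, and siRNA 4 against siRNA 2 0 higher and 1 lower. With the filter, on log2(TPM + 1) and on log2(TPM + 0.1) alike, siRNA 4 against control gave 0 higher and 1 lower, and siRNA 4 against siRNA 2 1 higher and 3 lower. DESeq2 gave 0 higher for siRNA 4 against control and 1 higher for siRNA 4 against siRNA 2. With a term for each siRNA, which takes the difference between siRNA 2 and siRNA 4 out of the spread, 2 chains were lower with the LGR6 siRNAs. Without that term there were 0, and the count over all genes was 1298 against 0. No replicate was involved. Leaving out each library gave 0 to 2 chains higher and 0 to 1 lower for siRNA 2, 0 to 1 higher and 0 to 7 lower for siRNA 4, and 0 to 3 higher and 2 to 10 lower for siRNA 4 against siRNA 2. In that comparison the log2 change of COL13A1 ran between -0.96 and 0.67. Each of these fits left 1 library with an LGR6 siRNA or with control siRNA, and the count over all genes changed with the library left out too. The ranges of chain counts therefore show nothing particular to the chains. Over all genes, siRNA 2 against control gave 1104 calls, beside 678 on log2(TPM + 0.1), 3 on unfiltered TPM and 4 without the HCC15 control, and siRNA 4 against control gave 1814, beside 1145, 2 and 118. A lone library left in a line was assumed to vary like the others.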

Other observations

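COL5A1, COL7A1 and LAMA2 were the 3 of 36 tested chains whose response to both LGR6 siRNAs went opposite ways in the lines, and all 3 were higher in HCC15 and lower in A427. The same count over all tested genes was not taken, so neither the number nor the shared direction is a result about these chains. COL5A1, the alpha1 chain of type V collagen, had log2 ratios to its line's control of 0.98 with siRNA 2 and 0.48 with siRNA 4 in HCC15, against -0.997 and -0.29 in A427. COL7A1, the anchoring fibril chain, had 0.69 and 0.73 in HCC15, against -0.15 and -0.24 in A427, and LAMA2 had 0.19 and 0.18, against -0.13 and -0.18. The difference in response was 1.36 ± 0.57 for COL5A1 and 0.91 ± 0.40 for COL7A1 on the log2 scale (approximate SE). The edgeR adjusted p was 0.999995 for each, so it did not pass the test. These chains were picked after their values were seen.

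Of 9 pairs of chains that are neighbours among the RefSeq genes, 5 had both members tested. In 3 of these the direction of the difference between HCC15 and A427 was shared, COL3A1 with COL5A2 and COL4A6 with COL4A5 among them. COL4A1 with COL4A2 and COL6A1 with COL6A2 had opposite directions. The pairs were looked up after the levels were seen.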
